A study of Mus musculus with 12 samples.

Results

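The enzymes described here attach glucuronic acid, sulfate or glutathione to drugs, hormones, bilirubin and other lipophilic molecules, the second phase of hepatic detoxification. They were taken by symbol, as the UDP-glycosyltransferases Ugt1a, Ugt2 and Ugt3, the sulfotransferases Sult, the soluble glutathione transferases of the alpha, kappa, mu, omega, pi, theta and zeta classes, and the membrane-bound Mgst genes. Of 26301 rows in the count table, 66 matched, and none of these was a pseudogene in the RefSeq gene table (GRCm38.p6). The 60 genes with at least 10 counts summed over the 12 libraries are the members, and 56 of these passed the filter on low counts and were tested. The other 4, Gsto2, Mgst2, Sult2b1 and Sult4a1, stayed at or below 2.47 CPM (counts per 1000000 counts of the scaled library) in every library.

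In liver these genes are read mainly in hepatocytes, and many follow the position of the cell along the lobule or the sex of the animal. UDP-glucuronosyltransferases sit in the endoplasmic reticulum and use UDP-glucuronic acid. Sulfotransferases are cytosolic and use the sulfate donor PAPS. Glutathione transferases couple glutathione to electrophiles, and in mice several mu-class genes are read most strongly near the central vein, while Sult2a1 to Sult2a6 and Sult3a1 are typically higher in females.

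RNA was sequenced from 4 wild-type adult livers (control), from 4 spontaneous liver tumors lacking E2f7 and E2f8 (DKO) and from 4 spontaneous liver tumors lacking E2f7, E2f8 and Rb1 (TKO). The study collected its liver tumors at the end of the life span, from mice on a largely FVB background. An albumin-driven Cre, which acts in hepatocytes, deleted the genes in the tumor mice. The controls are labelled adult and wild-type, and their titles give no age. The study describes control littermates in its lifespan cohorts and littermates without the Cre as controls of its Ki67 staining. It does not say whether the sequenced control livers came from these mice. No tumor of a wild-type mouse and no tumor-free knockout liver was sequenced, so that tumor state and genotype cannot be told apart against control; the comparison of TKO with DKO is between tumors. In bulk tissue, fewer cells of a type and less RNA per cell cannot be told apart.

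Libraries held 9165812 to 16424973 assigned counts. Counts per gene were whole-gene sums, which need not show a deleted exon: Rb1 stood at 3.21 to 5.47 CPM in TKO tumors against 6.52 to 11.3 in the other 8 libraries, E2f7 was at or below 1.84 CPM in every library, and E2f8 was at 7.59 to 52.2 CPM in tumors against 4.52 to 8.98 in controls. By Xist and Y-linked counts, all 12 libraries looked male. Albumin alone took 4.82% of counts in TKO 4 and 22.7% in DKO 1. CPM are given after TMM scaling of library sizes, and fold changes are log2 values from edgeR's quasi-likelihood test with Benjamini-Hochberg adjustment over the 13882 genes tested. Labels number the samples within a group without saying what they share, and p-values measure the spread between these samples. The sample descriptions also hold a code whose first letter recurs across groups: b in control 1 and DKO 2, e in control 2, control 3 and TKO 1, and j in control 4, DKO 3 and TKO 4. What it stands for is not given. Controls 2 and 3, with the same letter, differed least among control pairs (chi-square per gene of 19.9, against 62.7 to 74.3). A fit with the letter as a term, chosen after the data were seen, has 3 residual degrees of freedom, and it called 0% of all genes in DKO and 0.576% in the mean of tumors. The letters of DKO 1, DKO 4, TKO 2 and TKO 3 occur in no other library. The letter term fits these tumors exactly, so that the contrasts of this fit rest on the other 8 libraries. The adjusted p of this fit is given beside each member's call.

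The members together took 1.56 to 1.88% of assigned counts in control livers. They took 0.86 to 1.77% in DKO tumors and 0.76 to 2.65% in TKO tumors, the lowest being TKO 2 and the highest TKO 4. Per kilobase of exon, the most abundant member in control livers was Mgst1, the microsomal glutathione transferase, at 2031 CPM per kb, followed by Gsta3 at 1204, Gstm1 at 894, Ugt2b36 at 568 and Gstz1 at 547. Gstp3, at a mean of 945 CPM in controls, has no exon length in the mm9 gene set and was not ranked. The spread among tumors was wide. The median member had an SD of log2 CPM of 0.369 among controls, 0.551 among DKO tumors and 0.727 among TKO tumors, whereas the median of all tested genes was 0.273, 0.272 and 0.302. An SD over 1 was found for 18 members in DKO (32.1%, against 4.46% of all genes) and for 16 in TKO (28.6%, against 6.02%).

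**Figure D1:**
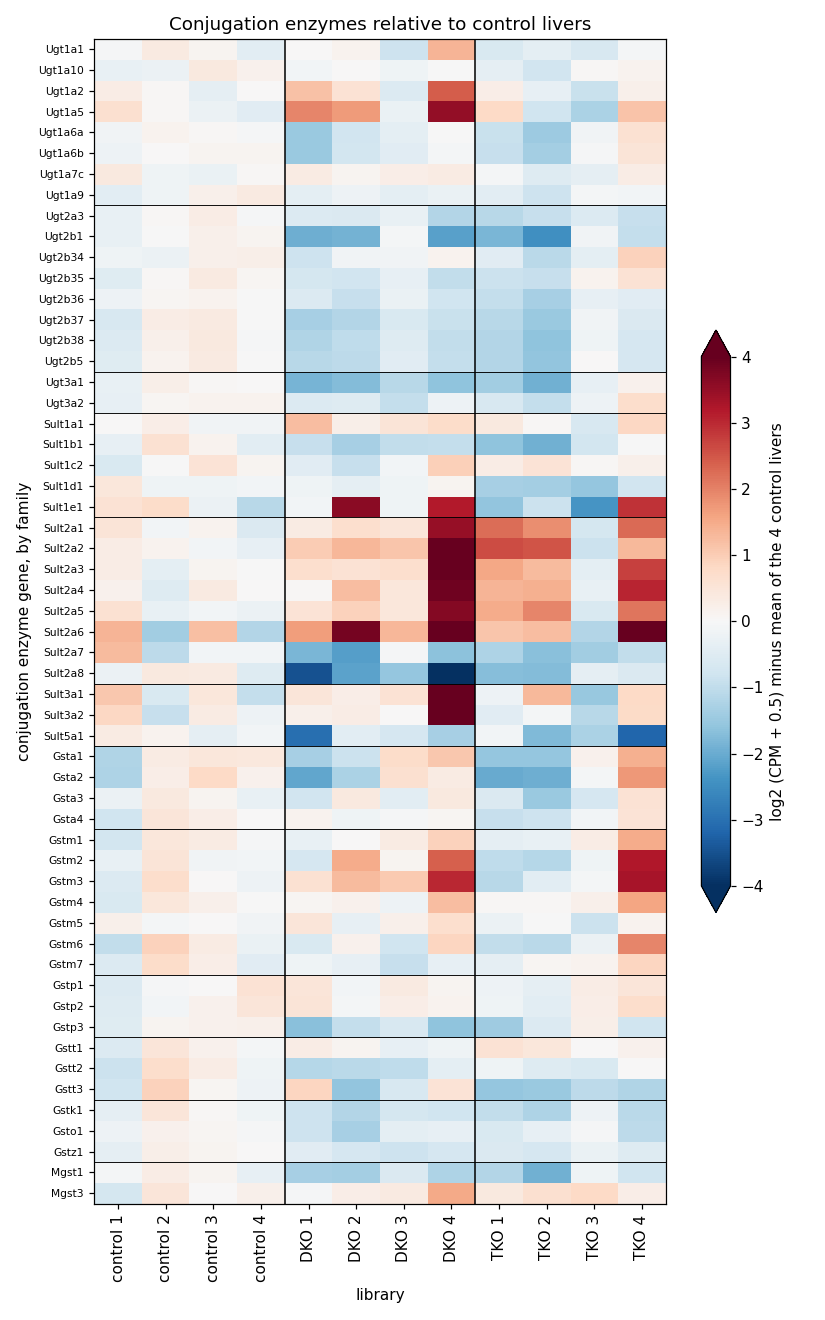
Heat map of the 56 tested members (rows, by family) in 12 libraries (columns), as log2 (CPM + 0.5) minus the mean of the 4 control livers; red is above and blue below that mean. The UGT2 rows are blue in most tumors, and the Sult2a1 to Sult2a6, Sult3a1, Gstm2 and Gstm3 rows are darkest red in DKO 4, TKO 4 or both.

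**Figure D2:**
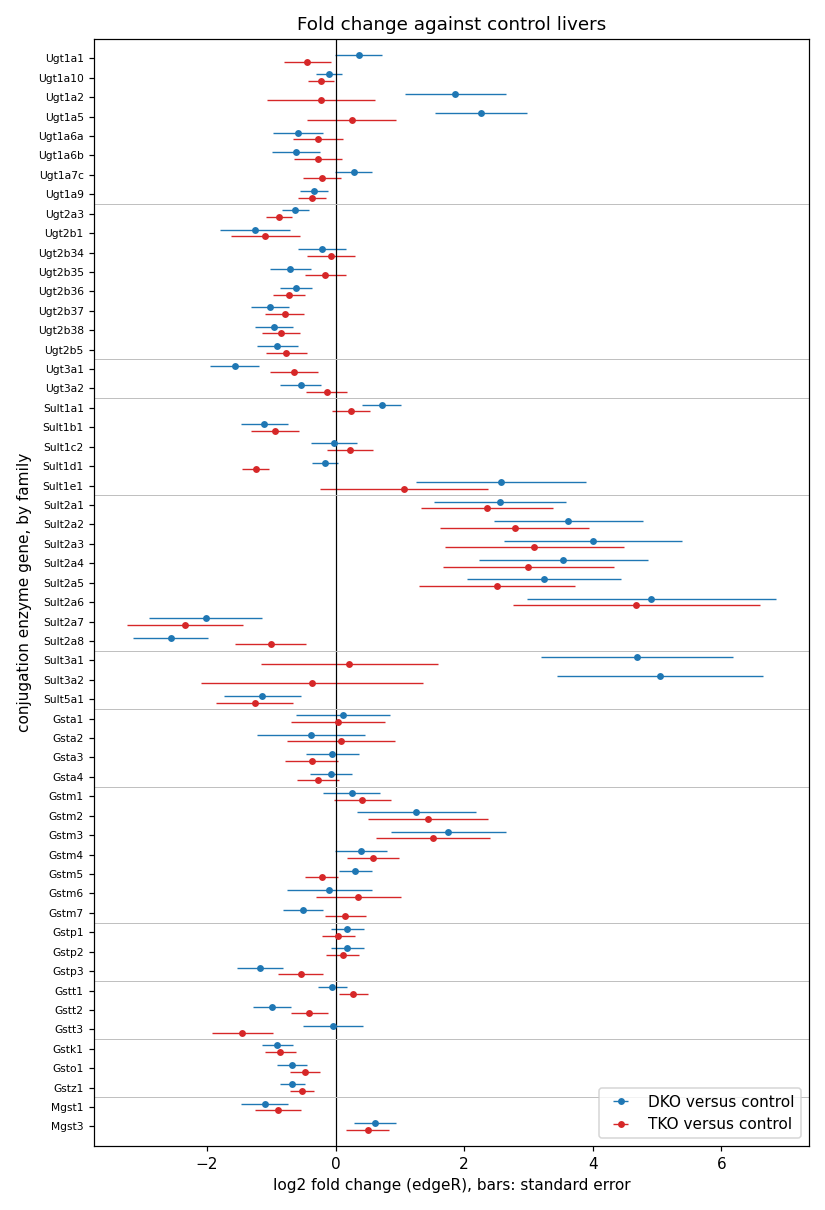
Log2 fold change of each tested member in DKO (blue) and TKO (red) tumors against control livers, with bars of 1 standard error from the edgeR fit. Members far to the right, such as Sult2a6 at 4.91 and 4.68, carry the longest bars.

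In DKO tumors compared with control livers, 1 member passed the test, Sult2a8, which fell; 0 were called higher. Among all tested genes, 1.01% were called lower and 1.41% higher. The members' median log2 fold change was -0.08, against 0.02 over all genes, and 33 had a negative value (48.4% of all genes did) and 23 a positive one (51.6%). At an unadjusted p under 0.05, 17 members were lower and 11 higher, where all genes gave 11.1% and 12.9%. All 4 DKO tumors lay below all 4 controls for 10 members (7.3% of all genes did so) and above them for 2 (8.87% of all genes). DESeq2 called 12 members lower and 5 higher, against 4.93% and 5.89% of all genes. limma voom with quality weights called 15 lower and 0 higher, against 6.31% and 6.68%.

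In TKO tumors compared with control livers, 0 members were called by edgeR in either direction, where 0.036% of all genes were called lower and 0.0504% higher. The members' median log2 fold change was -0.22, against 0.02 over all genes, and 33 were again negative (47.5% of all genes) and 23 positive (52.5%). At an unadjusted p under 0.05, 12 were lower and 5 higher (6.33% and 9.94% of all genes). All TKO tumors lay below all controls for 4 members, Gstt3, Sult1d1, Ugt2a3 and Ugt2b36 (3.29% of all genes did so), and above them for 0 (4.38% of all genes). DESeq2 called 4 lower and 0 higher (1.53% and 2.07% of all genes), and limma voom called 2 lower and 0 higher (0.303% and 0.396%).

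Taking the mean of DKO and TKO against control, Gstk1 and Ugt2a3 fell and 0 members were called higher, with 1.22% of all genes called lower and 1.25% higher. Negative values were found for 31 members (47.9% of all genes) and positive ones for 25 (52.1%). At an unadjusted p under 0.05, 18 were lower and 6 higher (10.2% and 12.8% of all genes), and DESeq2 called 14 lower and 5 higher (4.3% and 5.81% of all genes). limma voom called 17 lower and 0 higher (6.5% and 6.56%). All 8 tumors lay below all controls for 1 member, Ugt2b36 (1.46% of all genes), and above them for 0 (2.2%). This contrast shares its libraries with both of the former comparisons.

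Between TKO and DKO tumors, 0 members were called by edgeR, as was no other gene (0% in each direction). At an unadjusted p under 0.05, 6 were lower in TKO and 2 higher (3.84% and 5.16% of all genes). Negative log2 fold changes were found for 30 members (48.8% of all genes) and positive ones for 26 (51.2%), with a median of -0.08 against 0.01 over all genes. DESeq2 called 1 lower, Sult1d1, and 0 higher (0.231% and 0.173% of all genes). The same gene was the one for which all TKO tumors lay below all DKO tumors (2.12% of all genes did so), and 0 members lay above (2.75%). limma voom called 0, and no other gene (0% in each direction).

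Among the glucuronosyltransferases, all 8 UGT2 members, which conjugate steroids, bile acids and xenobiotics, had negative log2 fold changes in both tumor genotypes, with medians of -0.81 in DKO and -0.78 in TKO. One of them, Ugt2a3, passed the test, in the mean of the tumors. With total counts as the only scaling, which raised the median over all genes in the TKO comparison to 0.174, Ugt2b34 and Ugt2b35 turned positive in TKO and 6 of 8 stayed negative. Summed over the 8, controls held 3672 to 5434 CPM, DKO tumors 2364 to 3820 and TKO tumors 1680 to 3978. TKO 3, TKO 4 and DKO 3 reached into the control range.

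Ugt2a3 lies on chromosome 5 (mm9 87753997 to 87766220, minus strand), in the same stretch of the chromosome as its UGT2B relatives. It measured 302, 386, 462 and 363 CPM in controls 1 to 4. DKO tumors 1 to 4 held 258, 250.2, 304 and 166 CPM, and TKO tumors 1 to 4 held 173, 198, 253 and 199. All TKO tumors and 3 of 4 DKO tumors were below the lowest control. Its log2 fold change was -0.75 (SE 0.176, edgeR adjusted p = 0.0463) in the mean of tumors, -0.63 (adjusted p = 0.0994) in DKO and -0.88 (adjusted p = 0.122) in TKO. The call was lost without any one of 10 libraries, the exceptions being DKO 3 and TKO 3, and with the description letter as a term (log2 fold change -0.71, edgeR adjusted p = 0.0965).

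Ugt2b36, the most abundant UGT2 gene per kilobase, held 1002 to 1287 CPM in controls, 618 to 972 in DKO and 462 to 919 in TKO, so that neither tumor group overlapped the controls. Its edgeR adjusted p was 0.157 in DKO and 0.195 in TKO. Ugt2b1 was more uneven. Controls held 766 to 1079 CPM, DKO 3 held 885 and TKO 3 held 856, whereas the other 6 tumors held 171 to 484. For Ugt2b5 and Ugt2b38, 47.5% and 45.4% of the 40-base stretches in the transcript also occur in another gene, and their separate counts are uncertain to that extent; they measured 0.533 times (Ugt2b5) the control mean in DKO and 0.587 times in TKO.

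The UGT3 enzymes, which use other sugar donors, also had negative fold changes against control. Ugt3a1 held 156, 229, 200.3 and 196 CPM in controls 1 to 4, and 53.0, 58.0, 89.4 and 62.8 CPM in DKO tumors 1 to 4. Every DKO value was thus below every control. TKO tumors 1 to 4 held 74.2, 50.7, 155.6 and 218 CPM, TKO 4 inside the control range and TKO 3 just below its lowest value of 156.4. The DKO log2 fold change was -1.57 (SE 0.379) with an edgeR adjusted p of 0.0514, and the TKO value -0.65 had an adjusted p of 0.412. Ugt3a2 was at -0.54 in DKO and -0.14 in TKO, where it turned positive under total-count scaling.

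The UGT1A genes share their last exons at one locus, and reads from those exons cannot be given to one of them. Ugt1a1, the bilirubin enzyme, held 185 to 318 CPM in controls, 631 in DKO 4, and 139.5 to 275 in the other 7 tumors. Ugt1a5 held 11.4 to 24.4 CPM in controls, 62.2, 52.1, 12.8 and 185 in DKO 1 to 4, and 27.3, 8.81, 6.21 and 35.4 in TKO 1 to 4. Its DKO log2 fold change was 2.26 (SE 0.715, edgeR adjusted p = 0.089), and that of the low-count Ugt1a2 was 1.86 (SE 0.781, adjusted p = 0.169). In TKO the same genes were at 0.25 and -0.23. Ugt1a6a and Ugt1a6b, which conjugate small phenols, lay between 20.4 and 97.3 CPM in tumors and between 49.99 and 70.1 in controls.

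Of the sulfotransferases, Sult2a8 showed the one called difference in DKO tumors. It is carried in the older annotation as 2810007J24Rik on chromosome 7 (mm9 14996036 to 15032118, minus strand). Its product belongs to the SULT2A subfamily, whose members sulfate bile acids and hydroxysteroids. Control livers 1 to 4 held 822, 1244, 1224 and 671 CPM. DKO tumors 1 to 4 held 84.6, 216, 328 and 40.3 CPM, all below the lowest control. TKO tumors 1 to 4 held 292, 285, 751 and 639 CPM, TKO 3 within and TKO 4 just below the control range. The mean in DKO was 0.169 times that in controls, with a log2 fold change of -2.57 (SE 0.583, edgeR adjusted p = 0.0478), and the call was lost without any one of controls 1 to 4, DKO 1, 2 or 4, or TKO 1. With the description letter as a term the log2 fold change was -1.81 (edgeR adjusted p = 0.246). In TKO the ratio of means was 0.496 with an adjusted p of 0.397, and TKO against DKO gave a log2 fold change of 1.56 (SE 0.564, adjusted p = 0.488).

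**Figure D3:**
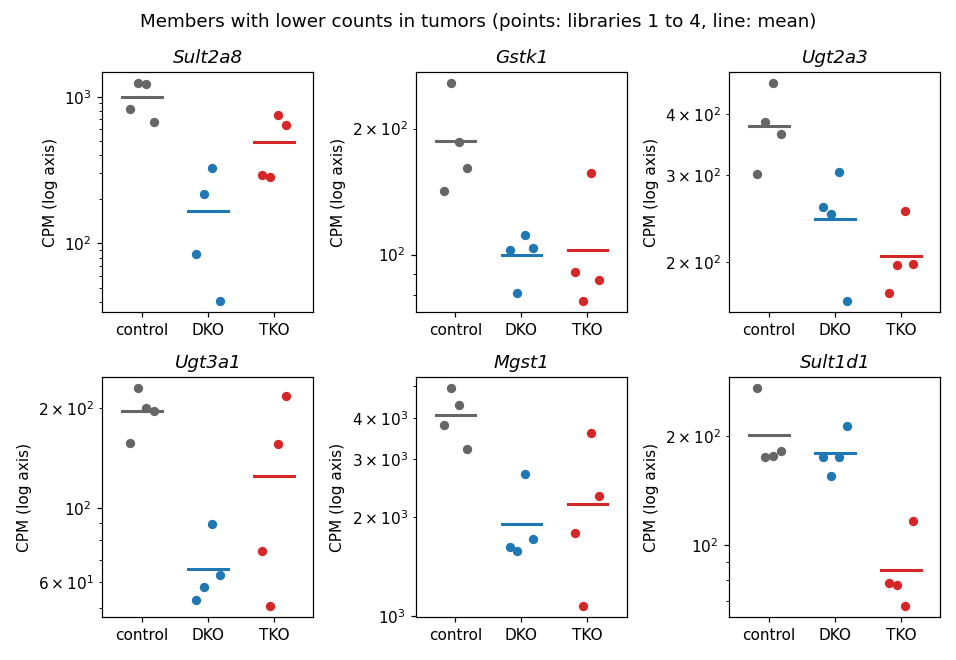
CPM (log axis) of 6 members in control, DKO and TKO libraries; each point is a library and each line a group mean. DKO points of Sult2a8, Gstk1, Ugt3a1 and Mgst1 lie below all control points, and TKO points of Sult1d1 lie below all points of the other groups.

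Near Sult2a8 on chromosome 7 lie its relatives Sult2a1 to Sult2a7. Sult2a1 to Sult2a6 had positive log2 fold changes of 2.55 to 4.91 in DKO and 2.35 to 4.68 in TKO, and none passed edgeR's test; adjusted p ran from 0.0924 to 0.155 in DKO and from 0.257 to 0.327 in TKO. DESeq2 called Sult2a2, Sult2a3, Sult2a4 and Sult2a5 in DKO. With the description letter as a term, edgeR called Sult2a2 in the mean of tumors (log2 fold change 2.71, adjusted p = 0.0464). These genes are close copies. A 40-base stretch of the coding sequence (bases 572 to 611, GENCODE vM1 transcripts, mm9) is shown to set Sult2a6 beside its relatives, with capitals at bases that differ from Sult2a6. It was picked as the stretch of Sult2a6 found in the most SULT2A coding sequences, so that its matches follow from that choice.
Sult2a6: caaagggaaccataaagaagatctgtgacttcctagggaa
Sult2a1: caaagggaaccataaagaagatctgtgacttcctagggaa
Sult2a3: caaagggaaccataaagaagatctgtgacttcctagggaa
Sult2a4: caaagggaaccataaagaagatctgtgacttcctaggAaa
Sult2a5: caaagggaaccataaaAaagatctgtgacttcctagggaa
Sult2a8: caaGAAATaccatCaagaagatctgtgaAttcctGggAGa
The stretch is the same in Sult2a6, Sult2a1 and Sult2a3, differs by 1 base in Sult2a4 and in Sult2a5, and by 10 bases in Sult2a8. Sult2a2 is not shown, as its coding model ends before the end of the stretch. Over whole transcripts, 69.6% of 40-base stretches of Sult2a2 recur in another gene, 41.8% of those of Sult2a1 and 41.1% of those of Sult2a5. The shares were 34.0% for Sult2a4, 15.7% for Sult2a3, 10.2% for Sult2a6 and 0 for Sult2a8. By these shares, the separate counts of Sult2a2 are the most uncertain of those named.

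All 4 DKO tumors lay above all controls for Sult2a2 and Sult2a3, and 3 of 4 TKO tumors lay above the highest control for each of Sult2a1 to Sult2a5. Sult2a6 measured 3.71, 0.123, 3.25 and 0.22 CPM in controls 1 to 4. DKO tumors 1 to 4 held 4.75, 22.9, 3.61 and 200.9 CPM, and TKO tumors 1 to 4 held 3.02, 3.34, 0.23 and 191 CPM. DKO 4 and TKO 4 thus stood far above the other 10 libraries. Sult2a1 to Sult2a5 stayed at or below 1.04 CPM in controls, and were at 0.23 to 1.74 CPM in DKO 1 to 3 and 9.26 to 15.7 CPM in DKO 4. They were at 1.33 to 4.94 CPM in TKO 1, 1.07 to 4.62 in TKO 2, 1.72 to 5.45 in TKO 4, and at most 0.153 in TKO 3. Sult2a7, a pseudogene in the mm9 gene set though not in the RefSeq table, was at 0.615 to 5.04 CPM in controls and at most 1.72 in tumors.

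Sult3a1 and Sult3a2 were high in a single tumor. Sult3a1 held 480 CPM in DKO 4 and 1.07 to 10.5 CPM in the other 11 libraries. Sult3a2 held 145 CPM in DKO 4 and at most 2.002 elsewhere. Their DKO log2 fold changes of 4.69 and 5.05 had edgeR adjusted p-values of 0.0916 and 0.0897, and DESeq2 gave no adjusted p for either.

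Sult1d1, which sulfates catecholamines and other small phenols, was measured at its lowest in TKO tumors. Controls 1 to 4 held 272, 176, 176 and 182 CPM, and DKO tumors 175, 155, 176 and 214. TKO tumors 1 to 4 held 78.8, 77.5, 67.7 and 117 CPM, all below every library of the other 2 groups. The TKO log2 fold change was -1.24 against control (SE 0.208, edgeR adjusted p = 0.0538) and -1.08 against DKO (SE 0.207, adjusted p = 0.281), while DKO against control was -0.16 (adjusted p = 0.663). DESeq2 called it in both, with adjusted p-values of 1.09e-05 and 0.00161. Without TKO 3 edgeR called it against control (adjusted p = 0.0331), as it did without TKO 4 (adjusted p = 0.0449) and without DKO 4 and TKO 4 together (log2 fold change -1.45, adjusted p = 0.0342). When any other single library was left out, edgeR did not call it. Nor did it with total counts as the only scaling, DESeq2's size factors, the replicate block, the compared groups alone or the description letter as a term. None of its 40-base stretches recurs in another gene.

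Sult1b1, a thyroid hormone sulfotransferase, was at 40.3 to 81.4 CPM in controls and 21.0 to 27.9 in DKO, without overlap, and at 13.9 to 53.0 in TKO (edgeR adjusted p of 0.1 and 0.238). Sult1a1, the phenol sulfotransferase, was at 350.2 to 472 CPM in controls, 456 to 922 in DKO and 249 to 688 in TKO (adjusted p of 0.169 and 0.744). Sult1e1, the estrogen sulfotransferase, was at 35.3 CPM in DKO 2, 26.2 in DKO 4 and 21.6 in TKO 4, and at or below 4.43 in the other 9 libraries.

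Among the soluble glutathione transferases, the kappa, omega and zeta enzymes all had negative log2 fold changes in both genotypes. Gstk1, the class kappa enzyme of mitochondria and peroxisomes (chromosome 6, mm9 42195934 to 42200440, plus strand), held 142, 257, 186 and 161 CPM in controls 1 to 4. DKO tumors 1 to 4 held 103, 80.9, 112 and 103 CPM, all below the lowest control, and TKO tumors held 90.8, 77.3, 156 and 86.8, with only TKO 3 inside the control range. The log2 fold change was -0.88 (SE 0.204, edgeR adjusted p = 0.0454) in the mean of tumors, -0.90 (adjusted p = 0.0656) in DKO and -0.86 (adjusted p = 0.146) in TKO. The call was lost without any one library other than DKO 3 and TKO 3, and with the description letter as a term (log2 fold change -0.93, edgeR adjusted p = 0.061). Gstz1, which acts in tyrosine breakdown, held 695 to 1051 CPM in controls, 505 to 655 in DKO and 560.1 to 747 in TKO, with adjusted p-values of 0.073 and 0.213. Gsto1 was at 47.1 to 61.7 CPM in controls and 21.6 to 42.9 in DKO (adjusted p = 0.113).

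Mgst1, the most abundant member, held 3802, 4935, 4386 and 3229 CPM in controls 1 to 4. DKO tumors 1 to 4 held 1619, 1581, 2698 and 1716 CPM and TKO tumors 1795, 1070, 3611 and 2316. All DKO tumors and 3 of 4 TKO tumors were below the lowest control. The ratios of means were 0.466 and 0.538, with edgeR adjusted p-values of 0.0987 in DKO, 0.251 in TKO and 0.0838 in their mean. Gstp3 was at 663 to 1064 CPM in controls, 292 to 601 in DKO and 345 to 1089 in TKO (adjusted p of 0.081 and 0.474). Gstp1 and Gstp2, of whose 40-base stretches 70.2% and 70.6% recur in another gene, had ratios of means between 1.03 and 1.14. Gstt3 was at 43.3 to 142 CPM in controls and 25.5 to 36.1 in TKO, below all controls (adjusted p = 0.181), but at 24.6 to 136 in DKO.

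In the mu class, whose enzymes conjugate electrophiles and epoxides, Gstm1, Gstm2, Gstm3, Gstm4 and Gstm6 were highest in TKO 4. Gstm3 held 84.8, 203, 124 and 108 CPM in controls 1 to 4. DKO tumors 1 to 4 held 190.4, 300.2, 258 and 1006 CPM and TKO tumors 57.2, 91.3, 116 and 1216. DKO 4 and TKO 4 were the highest libraries, and TKO 1 to 3 lay near or below the controls. Gstm2 was at 66.6 to 118 CPM in controls, 426 in DKO 4, 757 in TKO 4 and 230 in DKO 2, and at 36.5 to 87.7 in the other 5 tumors. Gstm6 was at 446 CPM in TKO 4 and 211 in DKO 4, with controls between 58.3 and 216. Gstm1 held 2274 CPM in DKO 4 and 3292 in TKO 4, against 709.7 to 1621 in controls. Gstm4 held 120.2 and 151.4 CPM in these tumors, against 32.78 to 69.09 in controls. Gstm5 in TKO 4 (9.4 CPM) and Gstm7 in DKO 4 (48.17 CPM) lay inside the control range. No mu-class gene passed the test; the lowest adjusted p was 0.253 in DKO and 0.426 in TKO. In the alpha class the abundant Gsta3 had log2 fold changes of -0.05 and -0.37, with adjusted p-values of 0.957 and 0.71.

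Several markers of pericentral hepatocytes, the glutamine-synthesizing cells around the central vein, were high in the same tumors. Glul, which encodes glutamine synthetase, held 7472 CPM in DKO 4, 10330 in TKO 4 and 3138 in DKO 2, against 213 to 781 in the other 9 libraries. Axin2, a target of Wnt signaling, held 41.3, 75.1 and 45.8 CPM in these 3 tumors and 2.53 to 9.97 elsewhere. Other markers were not high in all of these tumors. In DKO 2, Oat (284 CPM) and Cyp2e1 (5167 CPM) lay below every control, and Cyp1a2 (773 CPM) lay inside the control range. Cyp2e1 in DKO 4 (10840 CPM) was also inside the control range. Of 10 pericentral markers 9 had positive log2 fold changes in each genotype, with 0 called, and their sum ran from 8773 to 14260 CPM in controls, 1036 to 27350 in DKO and 1653 to 33920 in TKO. The positive values did not hold in every tumor. In DKO 1, TKO 1 and TKO 2 all 10 markers lay below the lowest control, with Glul at 223.5, 256 and 213 CPM against at least 463. The part of these markers in the mu-class and sulfotransferase values was not tested. The multidrug exporter Abcc4 was also highest in DKO 4 and TKO 4, at 102 and 116 CPM against 2.71 to 12.4 in the other 10.

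**Figure D4:**
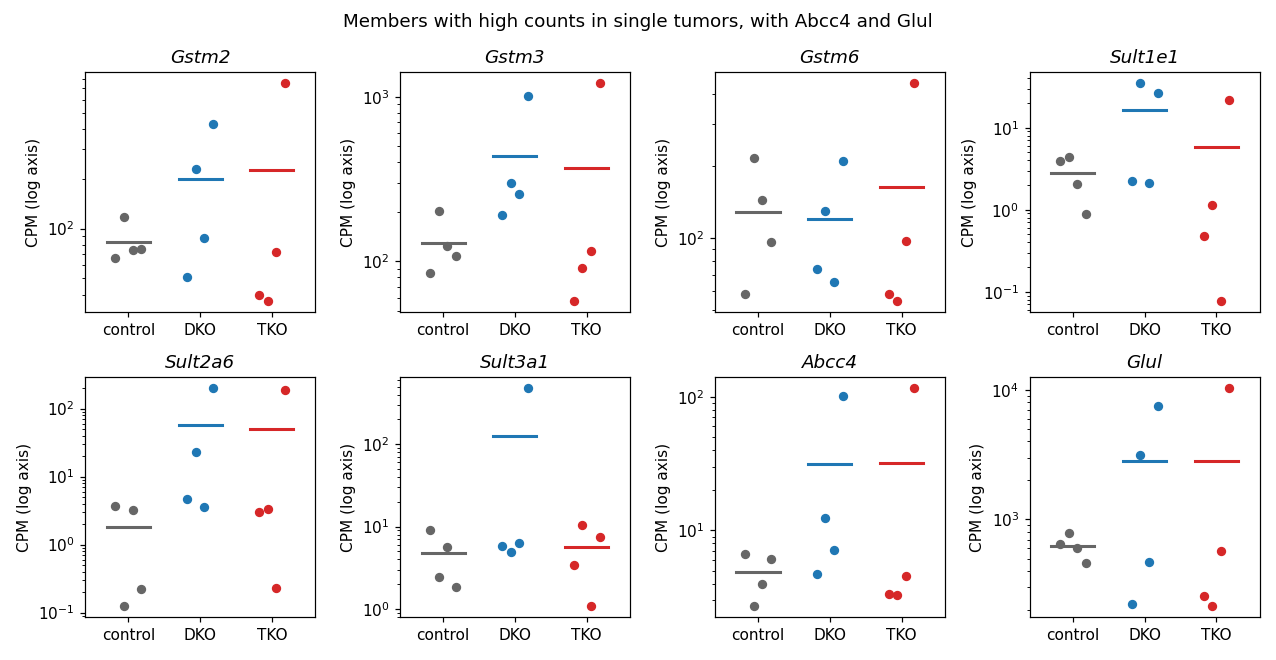
CPM (log axis) of 6 members and of the genes Abcc4 and Glul in control, DKO and TKO libraries; each point is a library and each line a group mean. In most panels 1 or 2 tumors stand above the rest, so that the group mean lies far from the other points.

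Short upstream sequences are given for 3 members that differ in these values: Gstm3, high in DKO 4 and TKO 4, Sult3a1, high in DKO 4, and Mgst1, lower in most tumors. Each is the 250 bases before a RefSeq start (GRCm38.p6, transcript strand, 5′ to 3′), and capitals mark a motif.
Gstm3, chr3:107969175-107969424, minus strand, TCF/LEF motif: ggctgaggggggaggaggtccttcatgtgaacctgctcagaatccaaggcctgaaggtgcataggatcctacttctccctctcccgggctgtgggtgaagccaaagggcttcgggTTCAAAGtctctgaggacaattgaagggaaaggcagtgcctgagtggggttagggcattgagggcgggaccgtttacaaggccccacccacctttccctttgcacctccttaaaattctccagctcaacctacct
Sult3a1, chr10:33857472-33857721, plus strand, STAT5 motif: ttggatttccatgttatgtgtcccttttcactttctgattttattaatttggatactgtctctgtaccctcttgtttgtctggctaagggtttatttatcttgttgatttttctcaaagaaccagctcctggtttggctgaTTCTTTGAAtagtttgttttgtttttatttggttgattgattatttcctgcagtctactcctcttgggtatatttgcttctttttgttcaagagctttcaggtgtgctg
Mgst1, chr6:138140277-138140526, plus strand, antioxidant response element: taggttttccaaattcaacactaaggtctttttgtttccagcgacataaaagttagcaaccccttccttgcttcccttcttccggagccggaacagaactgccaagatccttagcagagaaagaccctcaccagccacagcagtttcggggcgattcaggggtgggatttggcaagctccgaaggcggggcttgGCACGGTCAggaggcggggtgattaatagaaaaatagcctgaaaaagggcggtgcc
Each motif was searched on both strands. For TCF/LEF, searched as CTTTGAA or CTTTGAT, 7 of the 52 members with an entry held a match (13.5%, against 8.63% of all genes). For STAT5, searched as TTCNNNGAA, 4 did (7.69%, against 8.13%), and the match in Sult3a1 contains its TCF/LEF match. For the antioxidant response element, searched as TGACNNNGC, 4 did (7.69%, against 11.5%), and for the xenobiotic response element, searched as GCGTG, 10 did (19.2%, against 30.9%). These matches describe letters in a window and not binding. Of the members high in DKO 4 and TKO 4, Gstm2, Sult1e1 and Sult2a6 are not among those with a TCF/LEF match.

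Tumors differed in how many members left the control range. In TKO 1 and TKO 2, 33 of 56 members were below the lowest control (58.9%, where all genes gave 24.1% and 24.9%) and 8 were above the highest. All genes gave 26.6% and 28.6% above, against 14.3% of the members in both. In DKO 1 and DKO 2 the numbers below were 27 and 26 (48.2% and 46.4%, against 26% and 26.6% of all genes), and in DKO 3 and TKO 3 they were 19 and 23 (33.9% and 41.1%, against 24% and 19.8%). TKO 3 had 2 members above the highest control (3.57%, against 21.5% of all genes), and 31 inside the range. DKO 4 and TKO 4 had 21 and 25 above it (37.5% and 44.6%, against 28.3% and 26.9% of all genes) and 17 and 14 below it (30.4% and 25%, against 25.3% and 23.7%, shares near those of all genes).

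**Figure D5:**
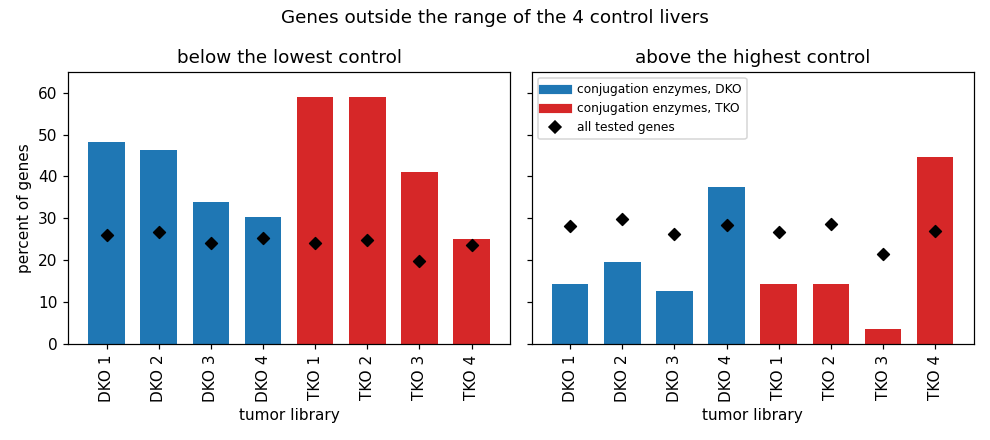
Percent of the 56 tested members (bars) and of all tested genes (diamonds) below the lowest or above the highest of the 4 control livers, for each tumor library. The bars below the range exceed the diamonds in all 8 tumors, and the bars above it exceed them only in DKO 4 and TKO 4.

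Genes with a male-biased liver pattern were also low in tumors: 8 of 9 had negative log2 fold changes in each genotype. Their summed level was 6629 to 11200 CPM in controls, 1338 to 4175 in DKO and 1435 to 7341 in TKO. Mup7, a male-biased urinary protein, fell in DKO (log2 fold change -3.48, edgeR adjusted p = 0.0469). Of 8 genes with a female-biased pattern, 4 were positive in DKO and 3 in TKO, with 0 called. Their summed level was 797.8 to 1214 CPM in controls, 1498 to 2564 in DKO and 463.8 to 3545 in TKO. Cyp2a4 alone held 154.5 to 390.9 CPM in controls, 855.9 to 1499 in DKO and 102.6 to 2642 in TKO. All 8 periportal hepatocyte markers had negative fold changes in both genotypes, with 0 called. Hepatocyte markers as a whole were present in every library, at 53390 to 353000 CPM summed over 9 genes, and 7 of 8 macrophage markers had negative fold changes in each genotype. Endothelial markers were positive for 6 of 8 in DKO and 8 of 8 in TKO, with summed levels of 152.5 to 232 CPM in controls, 180.1 to 294 in DKO and 196 to 386 in TKO. Of 5 tested cholangiocyte markers, 5 were positive in DKO (median log2 fold change 1.0) and 3 in TKO. Stellate cell and fibroblast markers were positive for 6 of 8 in each genotype, lymphocyte markers for 0 of 7 in DKO and 1 of 7 in TKO, and erythroid markers for 2 of 4 and 4 of 4. None of these cell type lists had a called gene in edgeR. The part of these markers in the members' values was not tested.

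Of 15 genes that supply cofactors, 0 were called in any of the 4 comparisons. The lowest adjusted p in DKO belonged to Slc26a1, a sulfate transporter, with a log2 fold change of -0.62 (adjusted p = 0.0737), and to Papss1, which makes PAPS, at 0.51 (adjusted p = 0.102). In TKO Cth, which makes cysteine, was at -1.07 (adjusted p = 0.157). A wider list of 23 enzymes was not limited to the second phase. Of these, 9 methylate, 3 acetylate and 7 join amino acids, while 4 hydrolyze epoxides or reduce quinones. Negative values were found for 21 of the 23 in DKO and 19 in TKO, with medians of -0.52 and -0.37. Among these, Gnmt and Nnmt, methyltransferases of glycine and nicotinamide, fell in the mean of tumors, with log2 fold changes of -1.49 and -3.86 (edgeR adjusted p of 0.0454 and 0.0444). Nnmt was at 100.2 CPM in control 1 and at 2.51 to 16.97 in the other 3 controls.

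A further list, with 8 tested genes, covered hydrolysis of glucuronides and sulfate esters and processing of glutathione conjugates. The sulfatase Sts was on it but has no row in the count table. The lysosomal sulfatase Arsb rose in the mean of tumors (log2 fold change 0.59, edgeR adjusted p = 0.0479). Whether Arsb acts on conjugates made by the members was not tested. Gusb, the lysosomal glucuronidase, was at 0.77 in DKO (edgeR adjusted p = 0.0505). Of 8 genes that export conjugates, 0 were called. The lowest adjusted p was 0.0573 in DKO (Abcc6, log2 fold change -1.27) and 0.137 in TKO (Abcc5, 1.22). Of 17 tested regulators of these genes, Nr1h4, the bile acid receptor, fell in DKO (log2 fold change -0.85, SE 0.179, adjusted p = 0.0425) and in the mean of tumors, and Cebpb, a liver transcription factor, fell in the mean of tumors (-0.90, adjusted p = 0.0491). Nr1h4 held 109 to 148 CPM in controls, 53.9 to 93.1 in DKO and 81.7 to 107 in TKO, with no tumor inside the control range.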

How the data were processed

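Poly(A) RNA from 12 mouse livers and liver tumors, 4 per group, was made into SOLiD libraries. Per the labels, the authors' processing notes name BWA, featureCounts and the mm9 build. What they deposited is a table of raw counts per Entrez gene. Strand and multi-mapping settings are not given in the sources used here. All columns mapped to a labelled sample.

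Counts were fitted in edgeR 4.0.16 (R 4.3.3; TMM, filterByExpr, quasi-likelihood, all 12 libraries, genotype as the only term) with an adjusted p under 0.05 as the call. DESeq2 1.42.0, which the study's methods name, limma 3.58.1 (voom), other scalings, filters, a replicate block and omission of each library were alternatives; the letter of the description code as a term and the omission of DKO 4 and TKO 4 together were added after the data were seen. Scripts were tested on simulated data. No 2 libraries of a group agreed within counting noise. SDs of log2 values used CPM plus 0.5.

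All members may be named; those called in any of 4 contrasts, and the 4 highest and 4 lowest fold changes of each, 19 in all, were followed through the alternatives. Of pathway lists, called genes are named, or else those with the lowest p. Members and lists were chosen with earlier results of these data known. Positions and transcripts are GENCODE vM1 (mm9; 59 of 60 members placed); upstream sequences are RefSeq, GRCm38.p6, and are not mixed with mm9 positions. With 9165812 counts in the shallowest library, 1 count is about 0.1 CPM, and members near that level are imprecise; counts give counting error only.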

Additional observations from a re-analysis of the deposited data

Results flagged for a closer look

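Among the 19 followed members, 57 groups of 4 libraries were checked for a library far from the other 3 on the log2 scale, and 7 were. Chance flags about 1 in 20 groups that were not selected, whereas these members were followed for extreme fold changes and some are close copies of each other. In DKO tumors, DKO 4 stood above the other 3 for Sult3a1 (479.9 CPM), Sult3a2 (145.1 CPM), Sult2a2 (15.68 CPM) and Sult2a3 (10.08 CPM), and DKO 3 stood above the other 3 for Ugt2b1 (885.4 CPM). In control livers, control 1 was highest for Sult1d1 (272.3 CPM) and lowest for Gstp3 (662.7 CPM).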

How the results depend on the processing

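Each followed member was recomputed only in the comparisons where the rule picked it. Of these 749 fold changes under the alternatives, 6 changed sign, all with the description letter as a term, 666 stayed on their side of the threshold, 39 passed it newly and 38 lost it. Over all 56 members, total counts as the only scaling turned the sign of 5 in DKO, 3 in TKO, 7 in TKO against DKO (Gsta1, Gstp1, Gstp2, Sult2a6, Ugt1a9, Ugt1a10 and Ugt2b36) and 3 in the mean of tumors. Counts of called members moved more. In DKO, TKO, TKO against DKO and the mean of tumors, where edgeR called 1, 0, 0 and 2, DESeq2 called 17, 4, 1 and 19, limma voom 15, 2, 0 and 17, and an adjusted p of 0.1 gave 14, 1, 0 and 12 (10.5%, 0.576%, 0% and 9.49% of all genes). DESeq2's size factors gave 1, 0, 0 and 2. Total counts as the only scaling and a covariate from sex-linked genes each called 0 in all 4. Total counts raised the median of all genes in the mean of tumors to 0.121. The covariate is the log2 ratio of Y-linked to Xist counts, with 1 to 6 Xist counts per library. All libraries looked male, so that it does not separate the sexes. No filter gave 2, 1, 0 and 1, at least 10 counts in every library 2, 0, 0 and 2, and the newer dispersion 2, 1, 0 and 3. The compared groups alone gave 7 in DKO and 0 in TKO and in TKO against DKO.

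Leaving out each library in turn gave 0 to 6 calls in DKO, 0 to 2 in TKO, 0 to 0 in TKO against DKO and 0 to 11 in the mean of tumors. Without TKO 3 the counts were 6, 2, 0 and 11, and without DKO 3 they were 5, 0, 0 and 5; without control 2, 3 or 4, DKO 1, 2 or 4, or TKO 1 the DKO count was 0, and without TKO 2 or TKO 4 it was 2. The mean of tumors had 0 calls without any one of the controls, DKO 1, 2 or 4, or TKO 1 or 2, and 3 without TKO 4, which gave 1 in TKO. Leaving out both DKO 4 and TKO 4, added after the data were seen, gave 0, 1, 0 and 2. The share of all genes called is not given here for the omissions, the other scalings and filters, the newer dispersion or the compared groups alone. Whether the members' counts moved with those of all genes therefore cannot be read from these settings. The description letter as a term, also added then, gave 0, 0, 0 and 1 (0%, 0.317%, 0% and 0.576% of all genes) with 3 residual degrees of freedom. Under it the log2 fold change was -0.47 for Sult3a2 in DKO, and in TKO against DKO 0.76 for Sult3a2, 0.29 for Sult3a1, 1.04 for Ugt1a2, 0.86 for Ugt1a5 and -0.52 for Gstp3. DKO 4, the library where Sult3a1 and Sult3a2 were high, shares its letter with no other library and does not enter these values. Same-letter libraries of different groups deviated together with r over 0.1 in 2 of 6 pairs (range -0.234 to 0.235). Causes other than the tumors that do not enter this fit were not tested.

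Of 12 same-numbered pairs, 5 deviated from their group means with a correlation over 0.1 (range -0.174 to 0.37), and 6 libraries correlated best with their own number. DKO 3 with TKO 3 (0.37) and DKO 4 with TKO 4 (0.342) gave the highest correlations of all pairs between groups. These values do not settle whether the numbers mark a pairing, and the labels do not say. The replicate block gave 5, 0, 0 and 10 calls (3.67%, 0.0072%, 0% and 3.18% of all genes). A fit to one sex equals the full fit, since all libraries looked male, and the compared groups alone were not run for the mean of tumors. Low-count members such as Sult2a3, with 0 to 171 counts per library, carry the largest counting error.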
